A study of Mus musculus with 6 samples.

Results

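The genes described here encode proteins of the mitochondrial ribosome. They are the 76 rows of the deposited count table whose symbol starts with Mrpl or Mrps followed by a number, out of 23420 rows in all. Of these, 47 are named for the large subunit (Mrpl) and 29 for the small subunit (Mrps). All 76 were matched to a coding gene of mm10 by the symbol as written, and all 76 passed the filter on low counts, with 180 to 1923 reads per gene and library. They lie on 17 chromosomes, with 10 on chromosome 11 and 8 on chromosome 17.

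Mitochondria carry a ribosome of their own, which translates the few messenger RNAs of the mitochondrial genome into subunits of the respiratory chain and ATP synthase. Its ribosomal RNAs come from the mitochondrial genome, but every protein of it is encoded in the nucleus, made in the cytosol and imported. Part of these proteins descend from bacterial ribosomal proteins, and most of those carry the bacterial number, while the others are found only in mitochondria.

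The study asked how gene expression differs in mesenchymal stromal cells (MSCs) that express the thymoproteasome (TPr), a proteasome variant otherwise found in cortical epithelial cells of the thymus. RNA-seq was available for 6 libraries of mouse bone marrow-derived MSCs. The 3 libraries labelled Ctl MSC come from cells with the empty AP2 retroviral construct, and the 3 labelled MSC-TPr from cells given this construct with the subunits Psmb9 (β1i), Psmb10 (β2i) and Psmb11 (β5t). Both groups were transduced with retrovirus. No source used here states whether the libraries of a group are separate transductions or cultures, so p-values measure only the spread between these samples. Polyadenylated RNA was captured, so the RNA of bulk cultures was measured, in which fewer cells of a type and less RNA per cell cannot be told apart.

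Facts of the libraries touch every result below. Reads counted on genes ranged from 16158756 to 22158887 per library, and levels are given in CPM, the reads of a gene scaled to the library size after TMM normalization. The study checked transduction by eGFP and by immunoblots of the subunits, and lists Psmb10 among genes with enhanced expression. In the counts used here the transduced genes did not follow the labels. Libraries 1, 2 and 3 of Ctl MSC held 27.8, 8.81 and 8.38 CPM of Psmb10. Those of MSC-TPr held 8.97, 17.3 and 15.2 CPM. Psmb9 stood at 3.38, 0.801 and 0.827 against 0.554, 1.24 and 1.21 CPM, and Psmb11 was below 0.4 CPM in all 6. Every direction below is therefore one between library labels. Ctl MSC 1 and MSC-TPr 1 stood apart from their groups. On the first principal component (58.5% of the variance) Ctl MSC 1 lay beside MSC-TPr 2 and 3, and MSC-TPr 1 beside Ctl MSC 2 and 3. The second component (28.3%) separated the labels. There libraries 1, 2 and 3 of Ctl MSC lay at −48.9, −20.4 and −19.6, and those of MSC-TPr at 49.1, 24.2 and 15.6. The summed CPM of 15 cell division genes was 1908, 203 and 201 under the Ctl MSC label and 208, 1751 and 1819 under MSC-TPr, in the order of the library numbers, which holds for every list of values below. Of 6 MSC markers, Thy1 was at or near 0 in all libraries. The sum of the 6 was 1507, 574 and 575 CPM under Ctl MSC and 536, 993 and 1117 CPM under MSC-TPr. This sum, Cd44 and Ly6a split the libraries as the cell division genes did. Cd44 measured 536, 144 and 142 against 205, 519 and 532 CPM. Nt5e was instead lower in every MSC-TPr library, at 11.4, 20.2 and 17.4 against 2.66, 4.20 and 5.24 CPM. Eng and Pdgfra followed neither order. Of the haematopoietic markers, Ptprc, Itgam and Emr1 were at or near 0, with 11.0 to 17.4 CPM for all 6 together. Cd14 measured 11.7, 3.36 and 3.53 CPM under Ctl MSC and 3.27, 13.2 and 11.0 CPM under MSC-TPr, and Cd68 ran the other way at 1.63, 9.67 and 7.39 against 14.2, 1.66 and 0.789 CPM, so both split the libraries as the cell division genes did. The part of these MSC and haematopoietic markers in the members' values was not tested. The 4 endothelial markers together reached 0.785 to 3.32 CPM. Results are given over all 6 libraries and over libraries 2 and 3 of each group.

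Sequence in front of the genes is shown first, for some of the members whose values set the groups or the libraries apart in the results below. RefSeq windows of GRCm38.p6, from 250 bases before to 50 bases after the start, were found for 67 of the 76 genes. They were searched on both strands for short runs of letters that regulators of nuclear-encoded mitochondrial genes are known to bind: GCGCATGC for NRF1, CCGGAAG for the ETS family (which includes GABPA) and ATGGCGGC for YY1. Of the members looked at in this way, Mrpl1, Mrpl16, Mrps5, Mrps10, Mrps25 and Mrps31 held none of these letters in the 250 upstream bases. Their upstream bases are not shown, and the YY1 letters of Mrps5 lie after its start. The searched letters are in capitals in the upstream bases of Mrps18b and Mrpl10 (NRF1), Mrpl3 and Mrps26 (ETS) and Mrpl17 (NRF1 and ETS).
Mrps18b, chr17:35916441-35916690, minus strand: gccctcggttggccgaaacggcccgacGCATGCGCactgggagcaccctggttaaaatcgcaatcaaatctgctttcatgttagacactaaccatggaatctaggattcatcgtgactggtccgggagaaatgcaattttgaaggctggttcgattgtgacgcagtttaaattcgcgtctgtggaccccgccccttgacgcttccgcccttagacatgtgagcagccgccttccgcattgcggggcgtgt
Mrpl10, chr11:97041332-97041581, plus strand: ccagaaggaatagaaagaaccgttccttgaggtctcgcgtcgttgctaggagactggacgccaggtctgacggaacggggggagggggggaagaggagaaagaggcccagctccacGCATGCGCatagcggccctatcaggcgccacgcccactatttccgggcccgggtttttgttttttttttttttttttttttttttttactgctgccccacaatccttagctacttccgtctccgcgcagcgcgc
Mrpl3, chr9:105053018-105053267, plus strand: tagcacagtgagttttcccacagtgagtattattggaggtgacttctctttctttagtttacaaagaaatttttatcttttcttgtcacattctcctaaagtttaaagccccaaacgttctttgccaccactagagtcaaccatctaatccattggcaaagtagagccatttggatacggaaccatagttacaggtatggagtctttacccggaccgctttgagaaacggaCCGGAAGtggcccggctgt
Mrps26, chr2:130563507-130563756, plus strand: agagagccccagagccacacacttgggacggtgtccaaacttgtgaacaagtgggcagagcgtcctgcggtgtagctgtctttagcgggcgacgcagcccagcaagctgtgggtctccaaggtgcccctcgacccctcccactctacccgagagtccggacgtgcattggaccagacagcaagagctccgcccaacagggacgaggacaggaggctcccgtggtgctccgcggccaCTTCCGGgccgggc
Mrpl17, chr7:105811088-105811337, minus strand: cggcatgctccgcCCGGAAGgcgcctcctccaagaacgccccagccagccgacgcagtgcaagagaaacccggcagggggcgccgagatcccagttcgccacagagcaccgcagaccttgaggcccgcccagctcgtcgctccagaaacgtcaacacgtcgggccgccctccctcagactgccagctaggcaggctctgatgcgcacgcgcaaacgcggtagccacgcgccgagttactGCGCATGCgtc

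The ETS letters were in the windows of 23 of the 67 genes (34.3%), against 9.12% of all 27025 RefSeq windows and 19.1% of the 9428 windows of genes tested. In Mrpl3 and Mrps26 they began 19 and 14 bases before the start, and in Mrpl17 237 bases before it. The NRF1 letters were in 8 windows (11.9%, against 2.80% of all windows and 5.70% of those of genes tested), of which 7 belong to large subunit genes and 1, Mrps18b, to a small subunit gene. In the upstream bases shown they began 223 bases before the start in Mrps18b, 134 in Mrpl10 and 11 in Mrpl17. The whole window of Mrps18b held 2 NRF1 matches and 1 ETS match, and the others lie outside the upstream bases shown. The letters of the 3 motifs do not contain one another, and 33 windows (49.3%) held at least 1 of them, against 13.2% of all windows and 27.5% of those of genes tested. Letters outside this set were also counted, and GGGCGG (SP family) was in 49.3% of the members' windows, below the 66.2% of genes tested, while CACGTG (E-box) was in 7.46% against 10.5%. A match is a description of letters and no measure of binding.

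The YY1 letters were in 12 windows (17.9%), against 2.38% of all windows and 5.46% of those of genes tested. In 11 of the 12 they began 3 to 31 bases after the start and were read on the strand of the gene, so that they open with ATG, the letters of a start codon. In Mrps11 they lay on the other strand, at position −110 from the start. The stretches of Mrps5, Mrps30 and Mrps18a, described below, and of Mrpl27 are shown with the YY1 letters in capitals.
Mrps5, chr2:127587420-127587443, plus strand: gctccagcATGGCGGCggccgtac
Mrps30, chr13:118387219-118387242, minus strand: gggcgaaaATGGCGGCggccaggt
Mrps18a, chr17:46111010-46111033, plus strand: gttccaagATGGCGGCcctcaggg
Mrpl27, chr11:94653794-94653817, plus strand: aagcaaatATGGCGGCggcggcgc

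Many of these genes share their start region with a neighbour. For 32 of the 76 (42.1%) a coding gene on the opposite strand starts within 1000 bases, against 10.9% of all 21951 coding genes and 16.8% of the 11555 coding genes tested. Mrpl46, of the large subunit, and Mrps11, of the small subunit, form such a pair with each other on chromosome 7, with starts 412 bases apart. The start of Mrps18b lies 45 bases from that of Ppp1r10, that of Mrpl36 lies 29 bases from that of Ndufs6, a complex I subunit, and that of Mrps12 lies 172 bases from that of Sars2, the mitochondrial seryl-tRNA synthetase. Exons of 32 members overlap those of another gene. The libraries were made with a stranded kit, but the use of strand in counting is not given in the sources used here. Whether reads of opposite-strand pairs were kept apart in the counts is therefore not known. For several genes the overlap is given beside their values. Others named below overlap an antisense or opposite-strand gene, among them Mrpl24 by 594 bases (Rrnad1), Mrpl48 by 708 (Rab6a), Mrpl47 by 616 (Ndufb5) and 452 (Actl6a), Mrps30 by 623 (B430218F22Rik), Mrpl12 by 200 (Gm16755), Mrpl44 by 126 (Wdfy1) and Mrpl27 by 75 (Eme1). Mrpl33, Mrps18c and Mrpl3 share 261, 250 and 248 exon bases with an annotated transcript on their own strand (Gm43809, Gm43511 and Gm38077), and their counts are uncertain for that reason.

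The mitochondrial ribosomal protein genes were measured at moderate levels in all 6 libraries. Their summed CPM was 3337, 2553 and 2746 under the Ctl MSC label and 3181, 3555 and 2973 under MSC-TPr, or 0.261% to 0.342% of the reads on genes. Ctl MSC 2 and 3 were the lowest, and the groups overlapped because Ctl MSC 1 lay above MSC-TPr 1 and 3. The nuclear-encoded subunits of oxidative phosphorylation, which assemble with the products of this ribosome, summed to 8906, 6618 and 7178 CPM under Ctl MSC and to 8199, 9476 and 8141 CPM under MSC-TPr, and so ranked the 6 libraries in the same order. The cytosolic ribosomal protein genes did not, at 56402, 64614 and 70874 CPM under Ctl MSC and 74706, 71682 and 60384 CPM under MSC-TPr, with Ctl MSC 1 the lowest.

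Per kb of the principal transcript, Mrpl33, a short protein with a bacterial counterpart, was the highest of the 76 at 155 ± 35.5 CPM per kb (SD over the 6 libraries). It was followed by Mrpl52 at 101 ± 26.7, Mrpl42 at 88.3 ± 28.1 and Mrpl54 at 86.4 ± 24.8 CPM per kb, all 3 found only in mitochondria. Mrpl33 lay above the other 3 in each of the 6 libraries, at 114 to 215 CPM per kb, while Mrpl52, Mrpl42 and Mrpl54 did not differ beyond their spread. The lowest were Mrps25 at 4.43 ± 1.73, Mrpl17 at 5.35 ± 2.25, Mrpl48 at 6.17 ± 0.928 and Mrpl47 at 6.19 ± 1.03 CPM per kb. The order at the top depends on the transcript taken for the length: over all annotated exons of a gene, Mrpl33, Mrpl52, Mrpl42 and Mrpl54 ranked 54, 6, 35 and 1, while Mrps25, Mrpl17, Mrpl48 and Mrpl47 ranked 74, 71, 76 and 73.

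The highest library exceeded the lowest by a median of 1.62-fold over the 76 genes (range 1.25 to 2.69), against 1.93-fold over all genes tested. The median was 1.57-fold for the oxidative phosphorylation subunits, 1.51-fold for the cytosolic ribosomal protein genes and 13.3-fold for the 15 cell division genes. The lowest library was Ctl MSC 2 in 43 of the 76 genes, and the highest was MSC-TPr 2 in 29, Ctl MSC 1 in 23 and MSC-TPr 1 in 21.

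**Figure D1:**
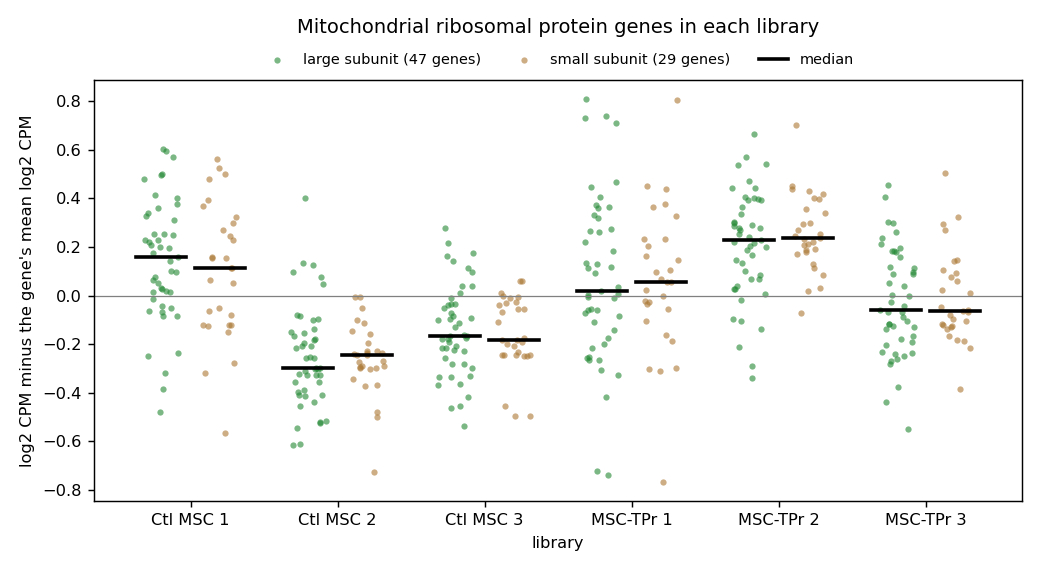
Each point is 1 of the 76 genes, plotted as its log2 CPM in a library minus its mean log2 CPM over the 6 libraries, with large subunit genes in green, small subunit genes in brown and the median as a black line. In Ctl MSC 2 only 6 genes lay above their own mean and in MSC-TPr 2 it was 68, while Ctl MSC 1 (53 genes) and MSC-TPr 1 (43 genes) lay between.

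As the plot of deviations by library shows, both subunits moved together from library to library. The median deviation of all 76 genes was 0.15, −0.26 and −0.17 on the log2 scale under Ctl MSC, and 0.05, 0.23 and −0.06 under MSC-TPr. Which 3 libraries were highest was then counted for each gene. Ctl MSC 1 with MSC-TPr 2 and 3, the libraries with high cell division genes, were the 3 highest for 26 members (34.2%, against 23% of all genes tested). Ctl MSC 1 with MSC-TPr 1 and 2 were the 3 highest for 24 members (31.6%), an order found in 3.74% of all genes tested. Under RLE and upper quartile scaling, added after seeing the data, this second count was 24 and 25. The opposite of the first order, with Ctl MSC 2 and 3 and MSC-TPr 1 highest, held for 5 members (6.58%, against 21.7%).

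**Figure D2:**
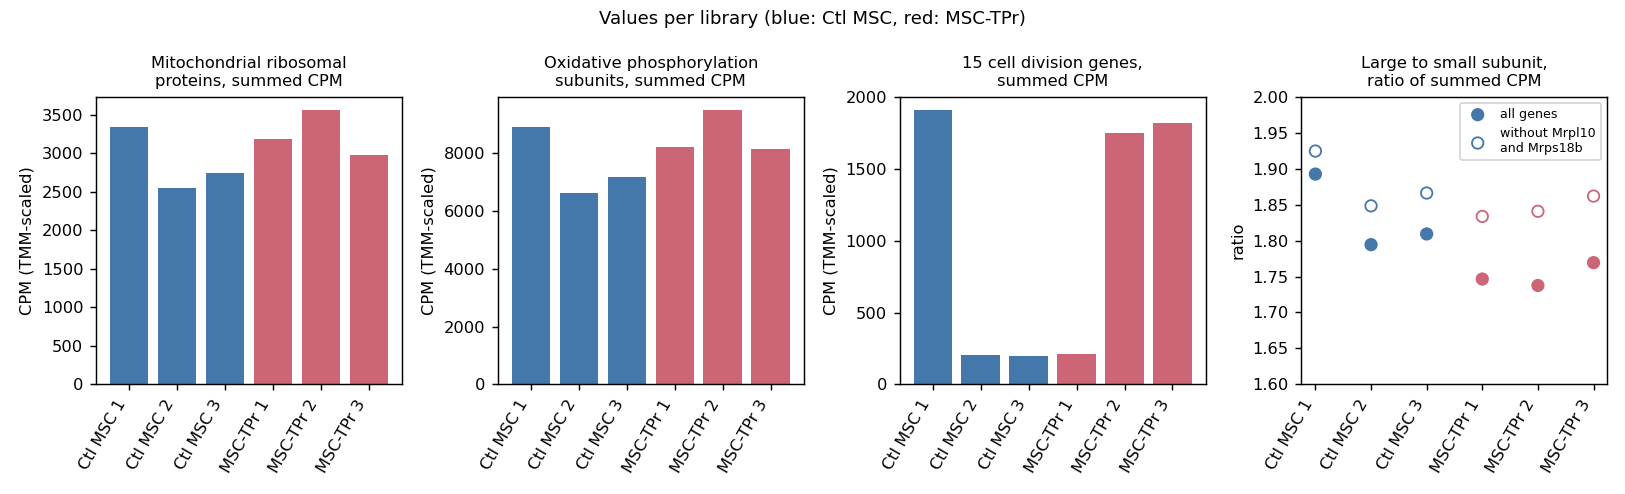
The first 3 panels give summed CPM (TMM-scaled) per library for the 76 mitochondrial ribosomal protein genes, the nuclear-encoded oxidative phosphorylation subunits and 15 cell division genes, and the last gives the ratio of large to small subunit sums, with filled points for all genes and open points without Mrpl10 and Mrps18b, on an axis that does not start at 0. The first 2 panels rank the libraries alike, cell division separates Ctl MSC 1 and MSC-TPr 2 and 3 from the others, and the ratio separates the labels with all genes (1.79 to 1.89 against 1.74 to 1.77) but not without those 2.

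Between the labels, no member was called over all 6 libraries. Genes were called at an adjusted p under 0.05 (quasi-likelihood test of edgeR, with Benjamini-Hochberg adjustment across the 11974 genes tested) and a fold threshold of 0.5 in size on the log2 scale, which took 0.426% of all genes. At an unadjusted p under 0.05, 5 members were higher under the MSC-TPr label and 0 lower, where 6.81% and 8.23% of all genes tested were. All 5 belong to the small subunit. The lowest adjusted p of a member was 0.183. In 63 of the 76 genes (82.9%) the fitted log2 fold change was above 0, against 51.1% of all genes tested, with a median of 0.18 against 0.01 and a range from −0.36 to 0.71. The oxidative phosphorylation subunits were alike in this, with 61 of 75 above 0 (81.3%, median 0.17), and 55 of 73 cytosolic ribosomal protein genes lay above 0 (75.3%, median 0.10). The members' median moved with single libraries, to 0.33 without Ctl MSC 1, 0.092 without Ctl MSC 2 and 0.11 without MSC-TPr 2. DESeq2 called 1 member, Mrps18b, where it called 5.05% of its 13253 genes with an adjusted p.

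The groups did not overlap for 9 members. Every MSC-TPr library lay above every Ctl MSC library for 7 of them (9.21%, against 10.6% of all genes tested), and below for 2 (2.63%, against 12.1%). The 7 are Mrps18b, Mrps5, Mrps10, Mrps26, Mrpl3, Mrpl16 and Mrpl1, and the 2 are Mrpl10 and Mrpl4. Shares of 9.21% and 10.6% are close to each other, so separation upwards was about as common as among all genes.

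Mrps18b, 1 of the 3 mammalian relatives of bacterial protein S18, lies on chromosome 17 of mm10 from 35910379 to 35916389. It measured 58.3, 59.1 and 63.4 CPM under the Ctl MSC label and 85.5, 98.6 and 80.6 CPM under MSC-TPr. The groups stood well apart, at 60.3 ± 2.77 and 88.2 ± 9.27 CPM (SD, n = 3 each), and Ctl MSC 1 and MSC-TPr 1 lay with the libraries of their own labels. Its log2 fold change was 0.55 over all 6 libraries (SE 0.143 and edgeR adjusted p = 0.183) and 0.55 over libraries 2 and 3 (SE 0.139 and edgeR adjusted p = 0.0215), and DESeq2 gave 0.56 over all 6 (SE 0.178, adjusted p = 0.0355). Leaving out 1 library at a time, the value stayed between 0.47 and 0.62. Its exons share 638 bases with Gm16279 on the opposite strand. The other relatives of S18 overlapped between the groups. Mrps18c, the small subunit member that keeps the bacterial position, measured 35.0, 23.3 and 25.2 CPM under Ctl MSC and 28.0, 33.9 and 27.1 CPM under MSC-TPr. Mrps18a, which sits in the large subunit despite its name, measured 41.8, 43.6 and 43.5 CPM against 59.3, 44.3 and 33.5 CPM. MSC-TPr 1 was the highest and MSC-TPr 3 the lowest of the 6 for Mrps18a, with a log2 fold change of 0.09 over all 6 libraries (SE 0.226) and −0.16 over libraries 2 and 3.

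Mrps5, the counterpart of bacterial S5, lies on chromosome 2 from 127587222 to 127606829. It measured 40.3, 42.6 and 41.2 CPM under Ctl MSC and 62.9, 57.8 and 52.5 CPM under MSC-TPr. The Ctl MSC libraries were nearly equal and all lay below the MSC-TPr libraries, with a log2 fold change of 0.48 (SE 0.141 and edgeR adjusted p = 0.207). Mrps10, the counterpart of bacterial S10 on chromosome 17 from 47368887 to 47381417, measured 39.6, 35.3 and 36.3 CPM against 48.3, 57.6 and 45.5 CPM, a log2 fold change of 0.44 (SE 0.157 and edgeR adjusted p = 0.269). Mrps26, found only in mitochondria, is encoded on chromosome 2 from 130563742 to 130568695, and its levels were 37.2, 35.3 and 35.2 CPM against 48.5, 52.9 and 41.9 CPM, with 0.41 (SE 0.152 and edgeR adjusted p = 0.283). That the libraries numbered 1 lay with their own labels follows from the choice of these genes, whose groups do not overlap. Over libraries 2 and 3, Mrps10 was called at 0.53 (edgeR adjusted p = 0.0313), while Mrps5 at 0.40 and Mrps26 at 0.43 lay below the fold threshold. Mrps26 shares 8 exon bases with an antisense gene.

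Mrps31, a mitochondria-specific protein of the small subunit, had the highest log2 fold change of the 76 genes without separating the groups. The gene spans 22411361 to 22429665 of chromosome 8. It measured 20.9, 26.2 and 27.2 CPM under Ctl MSC and 54.0, 40.8 and 26.6 CPM under MSC-TPr. MSC-TPr 3 lay among the Ctl MSC libraries, and MSC-TPr 1 was the highest. The fitted value was 0.71 over all 6 libraries (SE 0.283 and edgeR adjusted p = 0.314) and 0.34 over libraries 2 and 3 (SE 0.212 and edgeR adjusted p = 0.236). Mrps31, Mrps18b, Mrps5, Mrps10 and Mrps26 are the 5 members with an unadjusted p under 0.05.

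**Figure D3:**
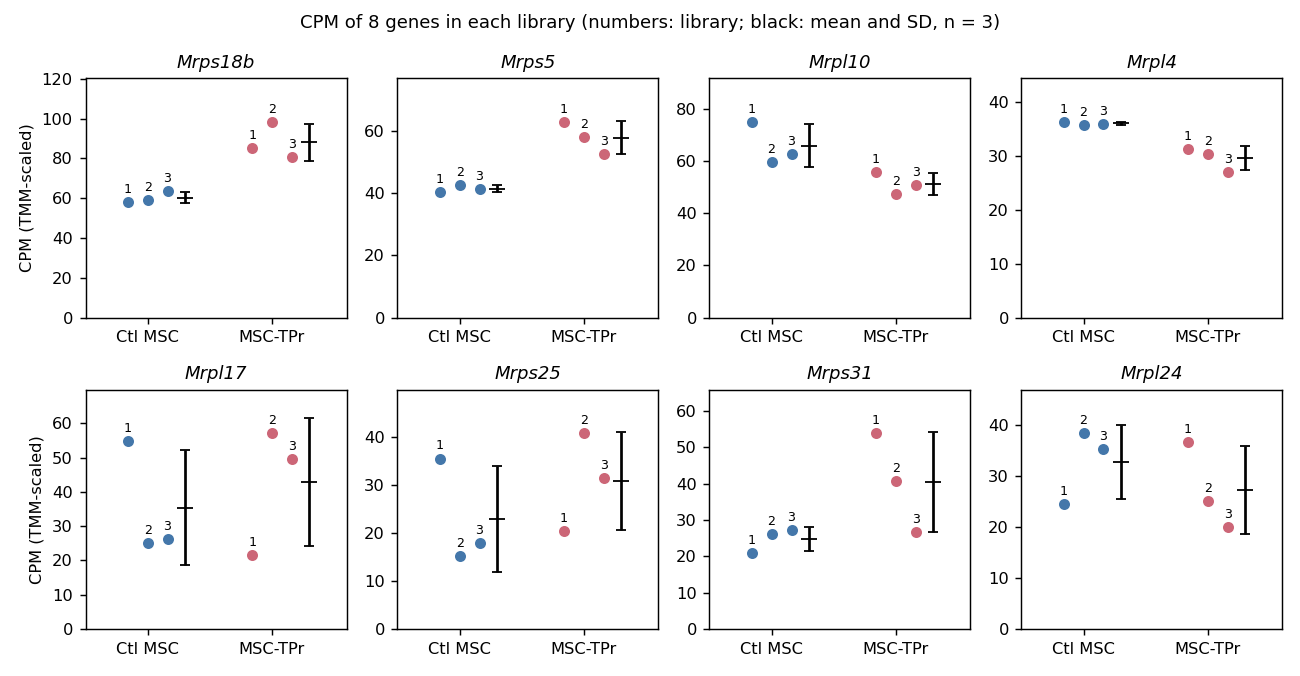
CPM (TMM-scaled) in each library, numbered by library, with the mean and SD (n = 3) in black. Mrps18b and Mrps5 lie higher in every MSC-TPr library and Mrpl10 and Mrpl4 lower, while for Mrpl17 and Mrps25 Ctl MSC 1 lies with MSC-TPr 2 and 3, Mrps31 overlaps through MSC-TPr 3, and for Mrpl24 MSC-TPr 1 lies with Ctl MSC 2 and 3.

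Among the large subunit genes, Mrpl10 and Mrpl4 were lower in every library labelled MSC-TPr. Mrpl10 encodes the base of the stalk that recruits translation factors and lies on chromosome 11 from 97041560 to 97049213. It measured 75.3, 59.9 and 62.8 CPM under Ctl MSC and 55.9, 47.5 and 50.8 CPM under MSC-TPr, a log2 fold change of −0.36 (SE 0.157 and edgeR adjusted p = 0.343). Mrpl12, whose product forms the mobile part of the same stalk, did not share this order, at 110, 62.7 and 68.5 CPM against 72.5, 109 and 89.2 CPM and a log2 fold change of 0.17 (SE 0.271 and edgeR adjusted p = 0.818). Ctl MSC 1 and MSC-TPr 2 were the highest for Mrpl12 and nearly equal. Mrpl4, a protein that lines the exit tunnel, lies on chromosome 9 from 21002738 to 21008839. It measured 36.3, 35.7 and 35.9 CPM against 31.2, 30.3 and 27.0 CPM, with a log2 fold change of −0.29 (SE 0.147 and edgeR adjusted p = 0.417). The 3 Ctl MSC libraries of Mrpl4 differed by less than 1 CPM. Mrpl10 has 240 exon bases in common with Gm11574 on the opposite strand.

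Mrpl3, next to the peptidyl transferase centre in ribosomes, measured 62.5, 50.9 and 56.3 CPM under Ctl MSC and 62.8, 85.7 and 65.5 CPM under MSC-TPr. Ctl MSC 1 lay just below MSC-TPr 1, so that the groups were separated by a narrow gap, and the log2 fold change was 0.33 (SE 0.179 and edgeR adjusted p = 0.436). Mrpl16 and Mrpl1, named here after their values were seen, were also separated, Mrpl16 at 21.1 to 28.9 against 31.0 to 31.6 CPM and Mrpl1 at 33.9 to 37.5 against 37.8 to 43.8 CPM. The gap of Mrpl1 and that of Mrpl3 were each smaller than the spread within the groups.

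**Figure D4:**
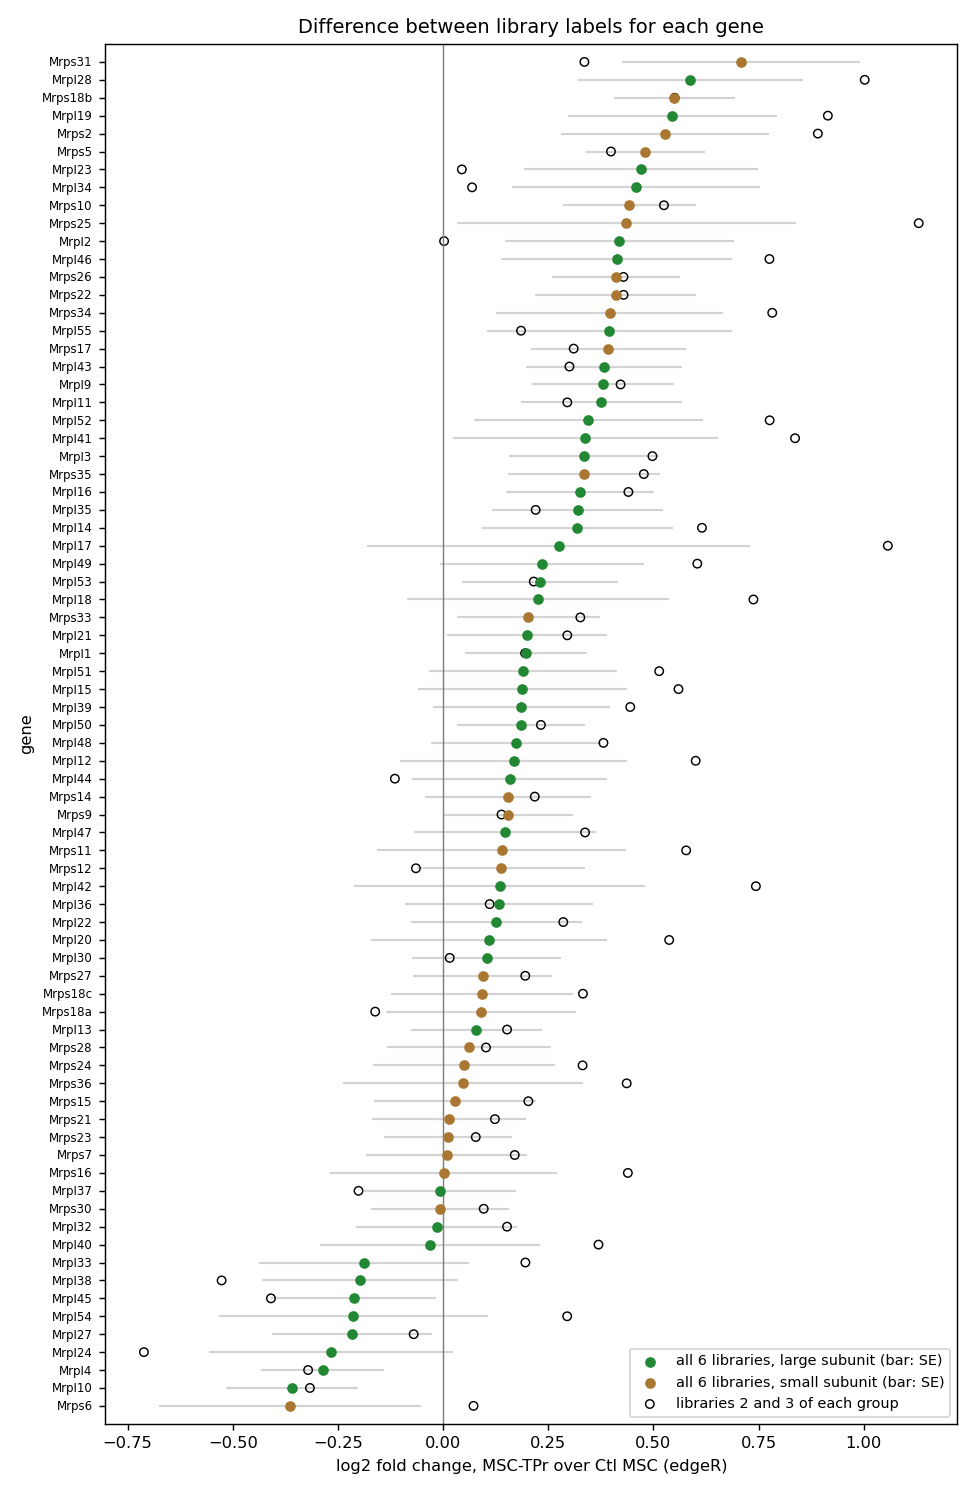
Log2 fold change of MSC-TPr over Ctl MSC for each of the 76 genes, sorted by the value over all 6 libraries (filled points, green for the large and brown for the small subunit, grey bars for the SE), with open circles for libraries 2 and 3 of each group. Most filled points lie between 0 and 0.5, the open circles reach 1.13 (Mrps25) and −0.71 (Mrpl24), and the 2 values lie close together for Mrps18b, Mrps26 and Mrpl10.

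The comparison over libraries 2 and 3 leaves out the libraries that stood apart from their groups, a choice made with earlier results known. The common dispersion, the spread between libraries that edgeR fits for all genes, was 0.0168 over these 4 against 0.124 over all 6. Adjusted p-values over these 4 libraries, here and elsewhere, depend on that choice. Over libraries 2 and 3 of each group, 20 members rose in the libraries labelled MSC-TPr and 2 fell (26.3% and 2.63%). This comparison called 40% of all 12122 genes tested, 20.6% higher and 19.4% lower, so the share of members called higher was near that of all genes and the share called lower was below it. Their median log2 fold change was 0.31 against −0.002 over all genes tested. The subunits of oxidative phosphorylation gave 19 higher and 2 lower of 75 tested (median 0.30), and the cytosolic ribosomal proteins 4 higher and 2 lower of 73 (median −0.02). All 15 cell division genes were higher between the same 4 libraries, with a median of 3.39, and their part in the members' result was not tested. The members called over these 4 libraries were 14 large subunit genes higher and 2 lower, and 6 small subunit genes higher and 0 lower. Among the 22 members called, Mrps18b and Mrps10 also had groups that did not overlap over all 6 libraries. How common this is among all genes called over these 4 libraries was not counted.

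The largest of these rises belonged to genes for which Ctl MSC 1 and MSC-TPr 1 went against their labels. Mrps25, a mitochondria-specific protein of the small subunit, measured 15.2 and 17.9 CPM in libraries 2 and 3 of Ctl MSC, against 40.9 and 31.5 CPM in those of MSC-TPr, but library 1 held 35.6 CPM for Ctl MSC and 20.4 CPM for MSC-TPr. It gave 1.13 over the 4 libraries (SE 0.176 and edgeR adjusted p = 0.00413) and 0.44 over all 6 (SE 0.403 and edgeR adjusted p = 0.660). Mrpl17, a large subunit protein with a bacterial counterpart whose upstream bases are shown above, measured 25.2 and 26.2 CPM against 57.2 and 49.5 CPM, while library 1 held 54.8 CPM for Ctl MSC and 21.6 CPM for MSC-TPr. Its values were 1.06 (SE 0.129 and edgeR adjusted p = 0.00189) and 0.27 (SE 0.455 and edgeR adjusted p = 0.823). In both genes the 6 libraries split into a high and a low set of 3, the same sets as for the cell division genes, for Mrps25 with a gap from 20.4 to 31.5 CPM. Exons of Mrps25 share 4590 bases with Nr2c2 on the opposite strand.

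Mrpl28, Mrpl19 and Mrps2, all with bacterial counterparts, followed with 1.002, 0.91 and 0.89 over the 4 libraries (edgeR adjusted p = 0.00257, 0.00436 and 0.00229). Over all 6 they gave 0.59, 0.54 and 0.53, since MSC-TPr 1 lay above Ctl MSC 2 and 3 for each of them while Ctl MSC 1 lay higher still. For Mrpl28 the 6 values were 45.2, 25.6 and 26.9 CPM under Ctl MSC and 41.7, 56.9 and 48.1 CPM under MSC-TPr. Exons of Mrpl19 share 1962 bases with Gcfc2 on the opposite strand. In the other direction, Mrpl24, a counterpart of bacterial L24, fell by 0.71 on the log2 scale over these 4 (SE 0.154 and edgeR adjusted p = 0.0129), from 38.5 and 35.4 CPM to 25.2 and 19.9 CPM. Library 1 held 24.5 CPM for Ctl MSC and 36.7 CPM for MSC-TPr, so the split was again that of the cell division genes, in reverse, and the fit over 6 gave −0.27 (SE 0.289 and edgeR adjusted p = 0.716). Mrpl38, a mitochondria-specific protein, was the second to fall, by 0.53 over these 4 (SE 0.114 and edgeR adjusted p = 0.0129).

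The large and the small subunit were set against each other by the sums of their CPM in each library, a ratio on which the scaling of libraries has no bearing. The large subunit genes exceeded the small subunit genes by a factor of 1.89, 1.79 and 1.81 under Ctl MSC and of 1.75, 1.74 and 1.77 under MSC-TPr. Every MSC-TPr library lay below every Ctl MSC library, with a difference of −0.06 on the log2 scale between the group means. With Mrps18a and Mrps30 counted with the large subunit and Mrps36 in neither, as the structure of the ribosome has them, the ratios were 2.21, 2.14 and 2.15 against 2.06, 2.01 and 2.04, and did not overlap either. Sums without Mrpl10 or Mrps18b were also formed, genes picked after seeing that they separate the labels in the directions that widen this gap, so that a smaller gap follows from the choice. Without Mrpl10 the ratios were 1.83, 1.73 and 1.74 against 1.70, 1.70 and 1.72, and without Mrps18b 1.99, 1.92 and 1.93 against 1.89, 1.88 and 1.91, and in neither case did the groups overlap. With both left out they were 1.92, 1.85 and 1.87 against 1.83, 1.84 and 1.86 and overlapped. The ratio of sums per kb also overlapped, at 1.97 to 2.12 against 1.94 to 2.03, as did the difference between the median log2 levels per kb of both subunits, at −0.10 to 0.04 against −0.15 to 0.02.

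By log2 fold change over all 6 libraries, the medians of the subunits were 0.19 for the 47 large subunit genes (36 above 0) and 0.14 for the 29 small subunit genes (27 above 0). With 1 library left out the large subunit median ran from 0.084 (without Ctl MSC 2) to 0.35 (without Ctl MSC 1), with 0.11 without MSC-TPr 2. The small subunit median ran from 0.099 to 0.30 without the same Ctl MSC libraries, and was 0.24 without MSC-TPr 3. Over libraries 2 and 3 they were 0.30 and 0.33.

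Some members are known for particular roles. Mrpl45, which holds the ribosome to the inner membrane, measured 55.6, 55.6 and 58.3 CPM under Ctl MSC and 60.6, 47.3 and 38.4 CPM under MSC-TPr, a log2 fold change of −0.21 (SE 0.195 and edgeR adjusted p = 0.658). MSC-TPr 1 was the highest of the 6 libraries and MSC-TPr 3 the lowest. Mrpl44, a large subunit protein with the fold of an RNase III, measured 17.2, 20.2 and 24.2 CPM against 27.8, 22.8 and 18.3 CPM, and its sign changed from 0.16 over all 6 libraries to −0.11 over 4. Mrps12, at the decoding centre, measured 18.5 to 20.0 CPM under Ctl MSC and 26.1, 19.1 and 18.5 CPM under MSC-TPr, so that only MSC-TPr 1 stood apart. Mrpl27, which reaches towards the peptidyl transferase centre in bacteria, overlapped at 42.1, 29.5 and 35.0 CPM against 30.4, 33.7 and 27.7 CPM.

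Mrps6, a counterpart of bacterial S6, had the lowest log2 fold change over all 6 libraries at −0.36 (SE 0.311 and edgeR adjusted p = 0.631), with 75.7, 51.2 and 53.4 CPM under Ctl MSC and 30.2, 64.9 and 45.0 CPM under MSC-TPr. MSC-TPr 1 alone was far below the others, and libraries 2 and 3 gave 0.07. Its exons overlap those of Gm49711 by 305 and of Slc5a3 by 159 bases, both transcribed in its direction, which leaves its count uncertain. Mrps30, a large subunit protein by structure, was among the steadiest at 42.3 to 55.5 CPM in all libraries (log2 fold change −0.01, SE 0.164). Mrps36, now known as a part of the α-ketoglutarate dehydrogenase complex and not of the ribosome, measured 34.6, 17.3 and 20.8 CPM against 23.6, 27.2 and 24.2 CPM, and its log2 fold change of 0.05 became −0.0029 under upper quartile scaling. The most abundant members per kb were not separated either, with log2 fold changes of −0.19 for Mrpl33, 0.35 for Mrpl52, 0.13 for Mrpl42 and −0.21 for Mrpl54, and nor were Mrpl47 (0.15) and Mrpl48 (0.17).

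Other genes of mitochondrial translation were read from lists written from general knowledge. Over all 6 libraries 0 of their 75 genes were called with edgeR, 4 were higher and 1 was lower at an unadjusted p under 0.05, and DESeq2 called 1. Over libraries 2 and 3, 14 were called higher and 3 lower (22.7% in all, against 40% of all genes tested). The 7 proteins of the mitochondrial ribosome that carry other symbols had a median log2 fold change of 0.10, with 3 higher over libraries 2 and 3. Gadd45gip1, which encodes a large subunit protein at the exit tunnel, was the highest of them at 0.55 (SE 0.203 and edgeR adjusted p = 0.282), with 41.5, 30.6 and 32.8 CPM under Ctl MSC and 42.1, 60.1 and 51.7 CPM under MSC-TPr, which separates the groups narrowly. Ict1, a peptidyl-tRNA hydrolase built into the large subunit, was the lowest at −0.33 (SE 0.181 and edgeR adjusted p = 0.448).

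The 15 translation factors had a median of 0.10, from −0.27 for Guf1, a ribosome-bound GTPase, to 0.58 for Slirp, which stabilizes mitochondrial messenger RNAs with its partner Lrpprc. Slirp measured 23.1, 14.7 and 14.9 CPM under Ctl MSC and 28.8, 27.0 and 22.8 CPM under MSC-TPr, and Ctl MSC 1 lay just above MSC-TPr 3. The 22 assembly factors had a median of 0.16, from −0.59 for Nsun4, an rRNA methyltransferase, to 0.48 for Ddx28, a helicase of large subunit assembly. The 19 mitochondrial aminoacyl-tRNA synthetases had a median of 0.02, with Fars2, the enzyme for phenylalanine, the lowest at −0.72 (SE 0.209 and edgeR adjusted p = 0.205). Fars2 was lower in every MSC-TPr library, at 19.5 to 28.0 against 12.6 to 15.5 CPM. The 13 proteins encoded by the mitochondrial genome were not analysed here.

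Of the 12 regulators of mitochondrial transcription and biogenesis, Yy1, whose letters were searched above, measured 61.1, 58.1 and 59.2 CPM under Ctl MSC and 100.7, 88.7 and 85.9 CPM under MSC-TPr. The groups stood apart, with a log2 fold change of 0.63 over all 6 libraries (SE 0.136 and edgeR adjusted p = 0.127) and 0.58 over libraries 2 and 3 (edgeR adjusted p = 0.00789), and Yy1 was the 1 gene of these lists that DESeq2 called over all 6. Nrf1 and Gabpa, the other factors searched for, had log2 fold changes of 0.07 (SE 0.150) and 0.19 (SE 0.124). Gabpa also lay higher in every MSC-TPr library, at 88.6, 89.0 and 87.2 against 104.6, 98.9 and 97.8 CPM, while Nrf1 overlapped. Ppargc1a, a coactivator of mitochondrial biogenesis, was low. It measured 2.48, 13.0 and 12.6 CPM under Ctl MSC and 3.65, 0.118 and 0.278 CPM under MSC-TPr, where MSC-TPr 2 and 3 held 2 and 6 reads. It split the libraries as the cell division genes did, in reverse, with MSC-TPr 1 nearer to Ctl MSC 1 than to Ctl MSC 2 and 3. Over libraries 2 and 3 it fell by 5.90 on the log2 scale (edgeR adjusted p = 0.000133) between the same libraries in which 20 members rose, and over all 6 it gave −2.79 (SE 1.23) and was not called. Its relative Ppargc1b, at 0.662 to 0.801 against 0.830 to 2.13 CPM, was the highest of the regulators at 0.98 (SE 0.436 and edgeR adjusted p = 0.354).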

How the data were processed

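RNA-seq of 6 libraries (3 Ctl MSC, 3 MSC-TPr) was used, grouped by the sample titles. Per the study's methods, the authors used the mm10 assembly for alignment and Htseq-count for counting; the deposited values are raw counts per gene. The submitters' processing notes name CASAVA 1.8.2, Trimmomatic 0.35 and TopHat2 2.1.0. Rows that name no gene held 13.8% to 20.8% of the listed reads and were left out. Differences were fitted with edgeR 4.0.16 in R 4.3.3, using TMM scaling, the filterByExpr filter, a design with the group alone, the quasi-likelihood test and Benjamini-Hochberg adjustment. An SE is the log2 fold change divided by the square root of F, without sign. DESeq2 1.42.0 was an alternative, as were RLE and upper quartile scaling, no filter on low counts, a replicate block, and leaving out libraries. The fits were tested on simulated counts. At this depth 3 reads make 0.135 to 0.186 CPM before TMM scaling, a limit for counting error alone.

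Gene positions, exon overlaps and principal transcript lengths come from GENCODE M21, where 21785 of 23420 symbols matched directly and 1260 by an older symbol. Upstream sequences come from RefSeq (GRCm38.p6); in 58 of 67 windows the bases after the start were found in a GENCODE transcript of the gene. The members, gene lists, markers, motifs and the choice of libraries 2 and 3 were made with earlier results of these data known. Genes named in the text are the 6 highest and 6 lowest log2 fold changes, the 4 highest and 4 lowest levels per length, up to 5 per direction whose groups do not overlap, 11 chosen for their roles, and the highest and lowest of each list, with those of each list called over libraries 2 and 3 given as counts; 1 gene that this rule names is not reported here. Mrpl38, Mrpl1, Mrpl16, Mrps11, Mrpl46, Mrpl36, Nrf1, Gabpa and Yy1 are named beside this rule.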

Additional observations from a re-analysis of the deposited data

How the results depend on the processing

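The libraries used moved the members' calls most. DESeq2 over all 6 libraries called 1 member higher, and libraries 2 and 3 of each group gave 20 higher and 2 lower with edgeR and 21 and 2 with DESeq2 (a fit added after seeing the data), against 0 over all 6. Of the genes of the other lists, 1, 17 and 16 were called in these 3 fits. All genes together gave 3 higher and 48 lower calls over 6 libraries, 239 and 430 with DESeq2, 2498 and 2356 over libraries 2 and 3, 2412 and 2153 there with DESeq2, and 0 to 11 and 0 to 105 with 1 library left out. The small subunit median was 0.33 (edgeR) and 0.34 (DESeq2) over libraries 2 and 3. Across 11974 genes, differences from the group mean correlated at −0.765 to −0.594 between libraries that share a number. Ctl MSC 3 with MSC-TPr 2 and Ctl MSC 2 with MSC-TPr 3 gave −0.577 as well. Ctl MSC 1 and MSC-TPr 1 stood apart in opposite directions, so these signs cannot show whether libraries were paired by number. With the replicate block 0 members and 0 of all genes were called, and the members' median was 0.19. Over libraries 2 and 3 the sign turned for 9 of the 76 members with either tool. Among those chosen for the text these were Mrpl33 (0.20 with edgeR, 0.20 with DESeq2), Mrpl44 (−0.11, −0.11), Mrpl54 (0.29, 0.30), Mrps12 (−0.065, −0.061), Mrps18a (−0.16, −0.16), Mrps30 (0.10, 0.10) and Mrps6 (0.072, 0.077). Of the 76, 2 turned with DESeq2 over all 6, 2 without a filter, 1 with the replicate block, 6 under upper quartile scaling and 4 to 13 with 1 library left out. Among those in the text, Mrps30 turned with DESeq2 over all 6 (0.0034) and without a filter (0.0040), and Mrps36 under upper quartile scaling (−0.0029). With 1 library left out, the genes in the text whose sign turned in at least 1 fit were Mrpl33 (−0.35 to 0.048), Mrpl42 (−0.065 to 0.57), Mrpl44 (−0.0015 to 0.30), Mrpl47 (−0.036 to 0.29), Mrpl54 (−0.39 to 0.052), Mrps12 (−0.036 to 0.24), Mrps18a (−0.14 to 0.28), Mrps18c (−0.021 to 0.29), Mrps30 (−0.13 to 0.069) and Mrps36 (−0.15 to 0.40), and no member was called. Without Ctl MSC 1 the log2 difference of the subunit ratio was −0.04 in place of −0.06. The cause of these changes was not tested. RLE scaling turned the sign of 0 of the 76 members and called 0.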
